A study of Homo sapiens with 6 samples.

Results

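The protein-coding zinc finger genes of chromosome 19 whose symbols run ZNF and a number were described in U937, a human monocytic cell line. They were found by position and gene type in GENCODE (GRCh38), with no use of their levels, and 151 of the 18798 genes of the table met the rule. RNA sequencing counts came from 3 Control lines, transduced with control plasmids, and from 3 ΔNSPs clones. The clones were depleted at once of 3 neutrophil serine proteases, the products of CTSG (cathepsin G), ELANE (neutrophil elastase) and PRTN3 (proteinase 3). All 6 were genetically modified U937 grown in the same medium under geneticin selection, with no other treatment, so the Controls also carried a plasmid and the drug. Each ΔNSPs sample was an independent clone, and the labels do not say whether the Control lines were clonal or how the 3 genes were depleted. GENCODE lists 249 genes under this rule, of which 98 were not analysed here. No gene in the table summed to fewer than 10 counts.

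Most of these genes encode proteins with a row of C2H2 zinc fingers, which read DNA sequence, and many also carry a KRAB domain, which recruits the corepressor TRIM28. TRIM28 brings the histone methyltransferase SETDB1 and heterochromatin proteins, and this machinery is best known for silencing transposable elements. The genes arose by tandem duplication and lie side by side in clusters, and the clusters themselves carry heterochromatin marks over the gene bodies while many of the promoters are CpG islands.

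The promoters are shown first, because the results turn on genes that were silent in one library and expressed in another. RefSeq (GRCh38.p14) gave a promoter, 250 bases before to 50 bases after a start site, for 133 of the 151 genes. ZNF577, at chr19:51887902-51888201 on the minus strand, and ZNF432, at chr19:52048789-52049088 on the minus strand, had no count in ΔNSPs clone 2. ZNF616, at chr19:52139889-52140188 on the minus strand, lies in the same cluster and was expressed in every library. ZNF440, at chr19:11814023-11814322 on the plus strand, and ZNF44, at chr19:12294834-12295133 on the minus strand, were silent in 3 libraries. ZNF700, at chr19:11924857-11925156 on the plus strand, is the neighbour of ZNF440 and was expressed throughout. ZNF382, at chr19:36605063-36605362 on the plus strand, and ZNF529, at chr19:36605208-36605507 on the minus strand, start back to back, and their windows share 155 bases. Each is written 5′ to 3′ along the gene, with capitals marking the CpG dinucleotides, the sites of DNA methylation.
ZNF577: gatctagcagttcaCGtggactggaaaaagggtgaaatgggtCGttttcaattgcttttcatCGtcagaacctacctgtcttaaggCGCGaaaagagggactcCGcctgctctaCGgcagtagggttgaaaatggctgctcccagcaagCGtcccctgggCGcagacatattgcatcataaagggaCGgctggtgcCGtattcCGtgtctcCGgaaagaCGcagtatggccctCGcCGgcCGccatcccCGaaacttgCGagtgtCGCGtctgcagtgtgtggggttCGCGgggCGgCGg
ZNF432: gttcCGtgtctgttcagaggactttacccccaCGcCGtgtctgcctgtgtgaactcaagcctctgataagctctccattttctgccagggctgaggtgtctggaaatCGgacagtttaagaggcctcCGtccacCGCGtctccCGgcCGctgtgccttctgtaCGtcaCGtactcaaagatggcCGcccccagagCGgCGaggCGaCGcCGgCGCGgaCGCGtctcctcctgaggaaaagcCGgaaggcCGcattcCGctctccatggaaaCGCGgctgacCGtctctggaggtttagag
ZNF616: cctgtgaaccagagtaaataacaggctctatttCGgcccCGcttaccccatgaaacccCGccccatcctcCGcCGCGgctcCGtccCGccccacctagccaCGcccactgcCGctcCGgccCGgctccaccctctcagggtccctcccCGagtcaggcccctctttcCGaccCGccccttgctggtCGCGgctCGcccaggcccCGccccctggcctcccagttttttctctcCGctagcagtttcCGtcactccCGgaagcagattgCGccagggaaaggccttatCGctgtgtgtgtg
ZNF440: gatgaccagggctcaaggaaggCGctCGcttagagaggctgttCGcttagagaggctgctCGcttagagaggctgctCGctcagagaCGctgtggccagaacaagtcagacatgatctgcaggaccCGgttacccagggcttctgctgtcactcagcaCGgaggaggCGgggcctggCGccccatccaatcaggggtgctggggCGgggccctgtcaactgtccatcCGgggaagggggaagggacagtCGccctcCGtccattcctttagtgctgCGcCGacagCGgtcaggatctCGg
ZNF44: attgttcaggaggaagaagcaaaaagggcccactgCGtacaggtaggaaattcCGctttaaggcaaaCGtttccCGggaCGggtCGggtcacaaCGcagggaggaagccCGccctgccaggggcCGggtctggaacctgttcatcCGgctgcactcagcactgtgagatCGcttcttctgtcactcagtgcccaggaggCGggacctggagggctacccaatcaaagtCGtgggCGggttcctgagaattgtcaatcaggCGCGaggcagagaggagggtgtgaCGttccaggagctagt
ZNF700: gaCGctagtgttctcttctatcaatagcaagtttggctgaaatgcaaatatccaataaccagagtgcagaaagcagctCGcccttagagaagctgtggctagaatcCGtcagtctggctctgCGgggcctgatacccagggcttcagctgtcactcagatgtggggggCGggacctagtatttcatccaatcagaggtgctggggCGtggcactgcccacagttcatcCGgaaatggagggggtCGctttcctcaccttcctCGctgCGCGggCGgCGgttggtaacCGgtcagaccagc
ZNF382: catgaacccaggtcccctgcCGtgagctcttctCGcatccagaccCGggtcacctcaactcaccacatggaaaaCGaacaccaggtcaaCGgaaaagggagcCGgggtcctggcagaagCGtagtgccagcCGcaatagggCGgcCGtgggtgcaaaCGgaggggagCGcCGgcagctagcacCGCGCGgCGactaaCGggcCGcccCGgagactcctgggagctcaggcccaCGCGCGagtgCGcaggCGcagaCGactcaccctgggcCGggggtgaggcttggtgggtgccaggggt
ZNF529: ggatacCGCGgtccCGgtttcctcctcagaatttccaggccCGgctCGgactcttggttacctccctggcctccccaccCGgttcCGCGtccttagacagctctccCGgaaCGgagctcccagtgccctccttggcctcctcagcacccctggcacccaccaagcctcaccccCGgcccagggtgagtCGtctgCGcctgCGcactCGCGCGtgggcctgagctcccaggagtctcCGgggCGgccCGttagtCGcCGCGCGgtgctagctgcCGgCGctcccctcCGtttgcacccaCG
These windows hold 25, 27, 24, 18, 17, 14, 27 and 28 CpG in that order. The genes that were silent in some library held 17 to 27, and the 3 expressed neighbours 14 to 28. The RefSeq start lies 2999 bases from the GENCODE start in ZNF577, 46900 bases in ZNF432 and 496 bases in ZNF382. The windows shown for these genes need not hold the start used in these cells.

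Over the 133 promoters, 1 per gene, the median was 22 CpG, against 14 over all 35116 RefSeq promoters of the same length. It was 25 over 221 promoters of ZNF genes on other chromosomes, and both comparison sets count every entry of a gene. It was 20 over the 8 with an entry among the 11 genes that switched between libraries. Short motifs, 3 in all and chosen after the sequences and levels were seen, were searched on both strands, and each window was counted once per motif, so 1 window could count for more than 1. CCGGAAG, the core of ETS factor sites, was found in 46.6% of the 133 promoters, 31.7% of those of ZNF genes on other chromosomes and 10.3% of all promoters. CCAATCA, which holds the box bound by the factor NF-Y, was found in 19.5%, against 12.2% and 6.95%. The motifs were unevenly spread: CCAATCA lay in 9 of 11 promoters of the cluster from ZNF653 to ZNF791 and in 0 of 16 of that from ZNF175 to ZNF761, and CCGGAAG in 9.09% and 62.5% of them. The third, the palindrome bound by ZBTB33, was found in 2 of the 133 (1.5%), against 0.0% for ZNF genes on other chromosomes and 0.424% of all promoters. A match says only that these letters are in the window.

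The labels and the cells were checked once. Library totals ran from 11476619 to 13782854 counts, and 3 counts, the floor used here, equalled 0.2139 to 0.2599 CPM (counts over the library total scaled by TMM, the usual measure of level corrected for depth). Levels of CTSG were 1895, 2474 and 2752 CPM in Control and 136, 110 and 45.2 CPM in ΔNSPs, and ELANE and PRTN3 were also lower in all 3 clones, with residual PRTN3 of 63.2 CPM in clone 2. Of the 3 targets, CTSG passed the edgeR quasi-likelihood test (adjusted p = 0.0215). The myeloid markers SPI1, CEBPA, CD33, LYZ, ITGB2 and CD4 were expressed in every library, and 12 of 12 listed myeloid markers had a row. FCGR1A and ITGAM were lower, at 2.13 to 11.7 CPM, CSF1R, MPO and CD68 ran from 0.145 to 4.24 CPM, and CD14 lay at or near the floor, with no count in Control 2. Of 12 markers of other cells 5 had a row, and their summed level, most of it PECAM1, was 53.2 to 62.3 CPM in Control and 63.7 to 75.7 CPM in ΔNSPs.

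The zinc finger genes were expressed at low to moderate levels. Their mean level over the 6 libraries ran from 0.129 CPM for ZNF671 to 227.4 CPM for ZNF146, with a median of 9.50 CPM against 27.9 CPM over all protein-coding genes of the table. Of the 151 genes, 133 were above 3 counts in every library, 121 had at least 1 CPM in every library, and ZNF671 had 3 counts or fewer in all 6. Per kb of exon, ZNF146, whose product consists almost only of zinc fingers, was highest at 54.8 CPM per kb, followed by ZNF428 at 45.4, ZNF787 at 20.9, ZNF524 at 15.4 and ZNF480 at 13.6 CPM per kb. The median over the genes was 1.70 CPM per kb. ZNF146 stood at 231.5, 265.4 and 246.1 CPM in Control and 258.1, 191.6 and 171.3 CPM in ΔNSPs, so clone 1 lay inside the Control range and clones 2 and 3 below it.

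Along the chromosome the genes formed 21 clusters when a gap of over 500 kb was taken to end one, and 7 clusters of at least 8 genes held 124 of the 151. The largest, from ZNF264 to ZNF446 at 57.2 to 58.5 Mb, held 37 genes. The cluster from ZNF175 to ZNF761 at 51.6 to 53.5 Mb held 21, and that from ZNF565 to ZNF573 at 36.2 to 37.8 Mb held 17. Between the highest and the lowest library 80 genes differed by under 2-fold, 45 by 2-fold to 5-fold, and 26 by 5-fold or more or had no count in some library. The steady majority and the blocks that were not steady are both seen in the map of all genes.

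**Figure D1:**
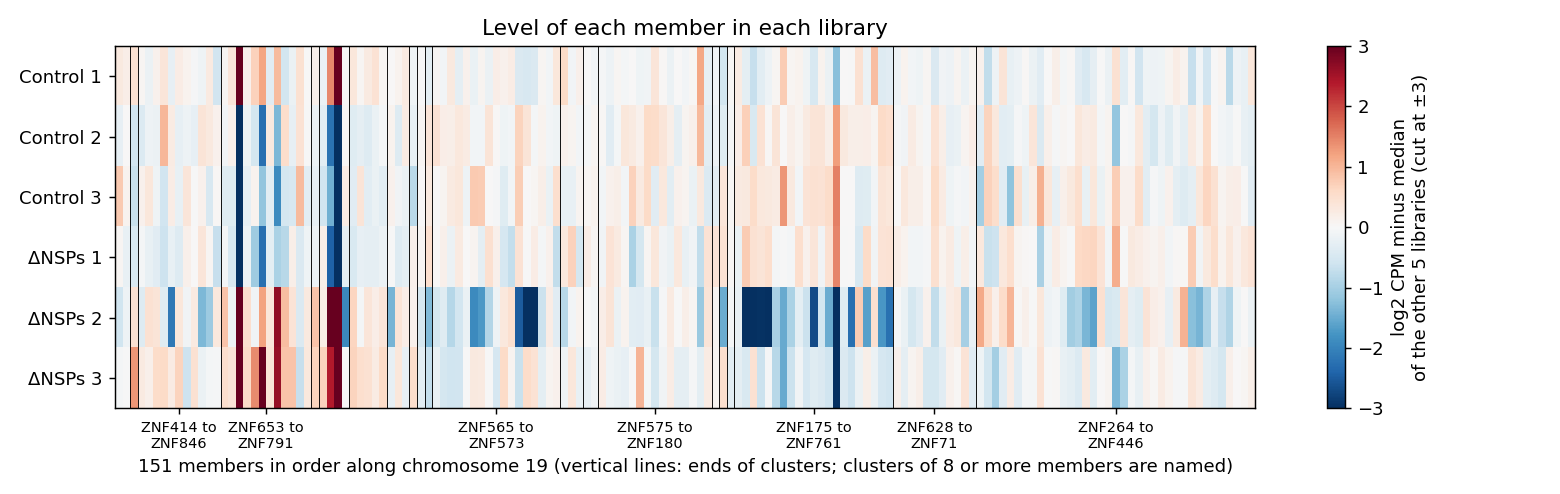
Level of the 151 zinc finger genes in the 6 libraries, in order along chromosome 19. Colour gives log2 CPM minus the median of the other 5 libraries, cut at 3 either way, and vertical lines mark the ends of clusters. Dark blue runs stand in ΔNSPs 2 in the clusters from ZNF565 to ZNF573 and from ZNF175 to ZNF761, and genes of the cluster from ZNF653 to ZNF791 are red in Control 1, ΔNSPs 2 and ΔNSPs 3.

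To see which genes were on in some libraries and off in others, off was taken as 3 counts or fewer and on as at least 1 CPM. By this measure 11 of the 151 genes (7.28%) switched, against 3.78% of all 12928 protein-coding genes, 5 of 201 ZNF genes on other chromosomes (2.49%) and 42 of 829 other protein-coding genes of chromosome 19 (5.07%). Low genes meet this measure more easily. Among genes whose highest library lay between 1 and 10 CPM, 10 of 58 chromosome 19 zinc finger genes switched (17.2%), against 18.5% of all protein-coding genes, 23.5% of the other genes of chromosome 19 and 8.16% of ZNF genes elsewhere. At matched levels the share was thus near that of protein-coding genes in general. A further 7 genes were off in some library and never reached 1 CPM.

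A first set of 4 genes was off, or near the floor, in libraries of both groups. ZNF440, at 11.8 Mb, had 3.32, 0.072 and 0.173 CPM in Control 1, 2 and 3 and 0.071, 10.2 and 4.72 CPM in ΔNSPs clones 1, 2 and 3, from 39, 1, 2, 1, 135 and 56 counts. ZNF433 had 0.596, 0 and 0.173 CPM in Control and 0, 0.605 and 2.78 CPM in ΔNSPs. ZNF44 had 0.426, 0.072 and 0 CPM in Control and 0.143, 1.74 and 1.68 CPM in ΔNSPs. In all 3 of these genes Control 2, Control 3 and clone 1 were off, and Control 1, clone 2 and clone 3 were above the floor. ZNF253, at 19.9 Mb, in another cluster, had 4.09, 0.145 and 0 CPM in Control and 0.285, 6.05 and 3.45 CPM in ΔNSPs. Clone 1 had 4 counts of ZNF253, just above the floor, so the same 3 libraries were low there. The groups overlapped in each of the 4 genes, since 1 Control line stood with clones 2 and 3 and clone 1 with the other Controls.

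Neighbours of this set showed the same order of libraries in part. ZNF506, the gene before ZNF253, had 4.94, 0.942 and 1.73 CPM in Control and 0.784, 15.6 and 9.60 CPM in ΔNSPs, highest in the libraries in which ZNF253 was on. ZNF93, on the other side and known as a repressor of LINE-1 elements, had 19.9, 20.4 and 23.0 CPM in Control and 16.5, 5.07 and 19.8 CPM in ΔNSPs. Here clone 2, in which ZNF253 was highest, was the lowest library. ZNF763, between ZNF700 and ZNF433, stayed below 1 CPM in every library, with 0.340 CPM in Control 1 and 0.674 CPM in clone 3 as its highest values. ZNF627, ZNF700 and ZNF136, which lie among the switching genes, were expressed throughout: ZNF700 had 12.9, 11.8 and 10.8 CPM in Control and 11.5, 16.7 and 17.7 CPM in ΔNSPs. ZNF627 ranged from 11.2 to 18.7 CPM and ZNF136 from 7.23 to 9.77 CPM over the 6 libraries. ZNF433-AS1, an antisense gene across the whole of ZNF433, had 2.13, 0 and 0.433 CPM in Control and 0.071, 1.06 and 4.55 CPM in ΔNSPs. The strand setting of the counting is not given in the sources used here, so reads of ZNF433 and of its antisense partner cannot be told apart.

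A second set of 5 genes was off in ΔNSPs clone 2 alone. ZNF432 had 5.62, 6.23 and 7.45 CPM in Control and 8.63, 0 and 6.06 CPM in ΔNSPs, and with no count in clone 2 it was at least 29.9-fold lower there than the mean of the other 5 libraries, taking 3 counts as the floor. ZNF649 had 1.87, 2.25 and 3.38 CPM in Control and 3.14, 0 and 3.12 CPM in ΔNSPs, at least 12.1-fold lower in clone 2. ZNF577 had 1.53, 2.61 and 1.91 CPM in Control and 2.71, 0 and 1.35 CPM in ΔNSPs, at least 8.90-fold lower. Clones 1 and 3 had 1.35 CPM or more of each of these 3 genes, which lie in 1 cluster. ZNF585A, in the cluster from ZNF565 to ZNF573, had 1.45, 2.75 and 2.08 CPM in Control and 2.07, 0 and 3.12 CPM in ΔNSPs, at least 10.1-fold lower in clone 2. ZNF382, known as a tumour suppressor silenced by promoter methylation in several cancers, had 0.851, 0.942 and 1.73 CPM in Control and 0.998, 0.151 and 1.18 CPM in ΔNSPs. Its 2 counts in clone 2 against 10 to 20 counts elsewhere make it the least certain of the 5.

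ZNF600 was off in 2 clones. It had 1.79, 4.49 and 5.37 CPM in Control, 5.20 CPM in clone 1 and no count in clones 2 and 3, which were at least 14.8-fold and 13.3-fold lower than the mean of the other 5 libraries at the same floor of 3 counts per library. Clone 1 stood inside the Control range, so the groups overlapped. ZNF611, its neighbour, had 11.1, 12.6 and 16.5 CPM in Control and 15.3, 4.39 and 8.25 CPM in ΔNSPs, again lowest in clones 2 and 3, and ZNF888 on the other side had 10.8 to 17.9 CPM. ZNF154, whose promoter is methylated in many tumours, was off in Control 2 and clone 3 but reached only 1.14 CPM, in clone 1.

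**Figure D2:**
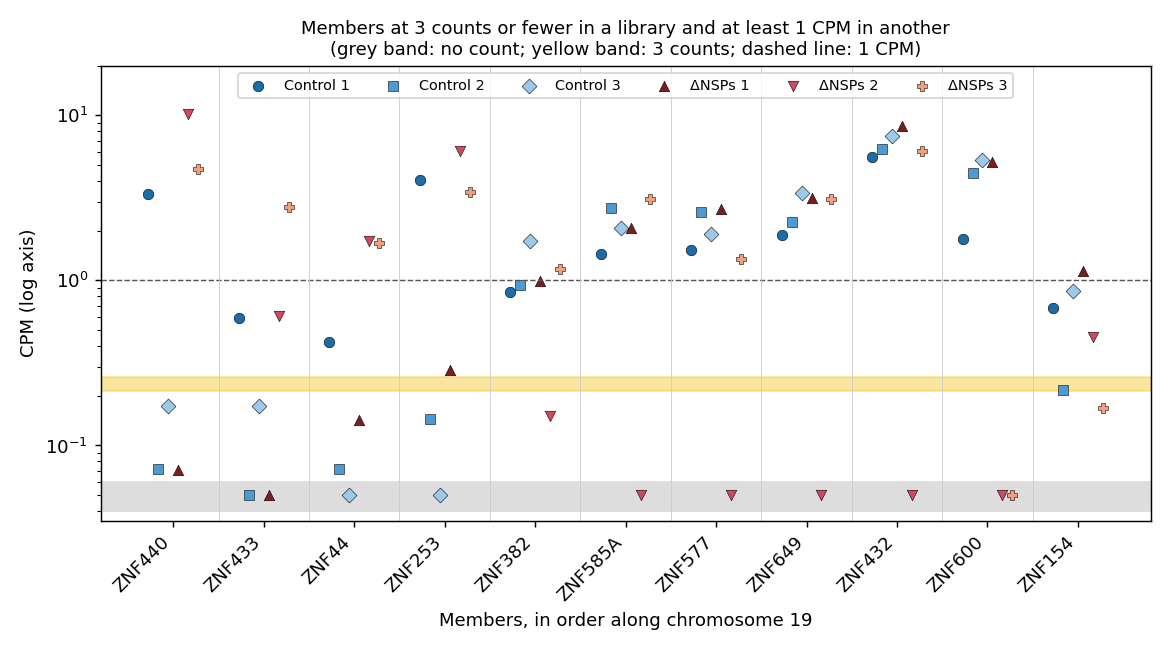
CPM (log axis) of the 11 zinc finger genes that were off in one library and on in another, in order along chromosome 19, with 1 symbol per library. Points in the grey band had no count, the yellow band marks 3 counts and the dashed line 1 CPM. In ZNF440, ZNF433, ZNF44 and ZNF253 Control 2, Control 3 and ΔNSPs 1 lie low, and in the 5 genes from ZNF382 to ZNF432 only ΔNSPs 2 does.

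Low levels in clone 2 went beyond genes without a count. At least 2-fold below the median of the other 5 libraries (log2 CPM with a prior count of 2), clone 2 held 30 of the 151 genes, against 1, 6 and 7 in Control 1, 2 and 3, 5 in clone 1 and 4 in clone 3. Clone 2 was the lowest library for 57 of the 151. Among genes that averaged 1 CPM or more it was lowest for 37.4% of the 139 zinc finger genes of chromosome 19. The like shares were 23.2% of ZNF genes on other chromosomes, 20.1% of other protein-coding genes of chromosome 19 and 21.1% of all protein-coding genes. In the same genes, the share at least 2-fold low in clone 2 was 27 of 139 zinc finger genes of chromosome 19 (19.4%) and 3 of 185 ZNF genes on other chromosomes (1.62%). It was 35 of 688 other protein-coding genes of chromosome 19 (5.09%) and 3.89% of all protein-coding genes. Genes were split by symbol, so these other genes include zinc finger genes without a ZNF symbol, such as ZFP14. ZFP14 had 1.74 CPM in clone 2 and 3.37 to 8.06 CPM in the other libraries. All these shares compare libraries, and the genes are not replicates, so no test was made. Myeloid markers differed too, in clone 3 as well as in clone 2. Their summed level was 1423 to 1608 CPM in Control and 1253, 2058 and 2009 CPM in clones 1, 2 and 3. Of the 12, 5 (LYZ, CD4, CSF1R, ITGAM and MPO) were highest in clone 2, and SPI1, ITGB2 and CD14 were highest in clone 3. CD68 was lowest in clone 2, and CEBPA lay inside the Control range there. LYZ had 109 to 116 CPM in Control and 95.5, 228.9 and 164.3 CPM in clones 1, 2 and 3. ITGB2 had 489 to 578 CPM in Control and 413.5, 863 and 1041 CPM in clones 1, 2 and 3. The part of these markers in the zinc finger levels was not tested. Clone 2 was looked at because of its values. Whether its difference belongs to the depletion or to this clone cannot be told apart with 1 such clone.

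**Figure D3:**
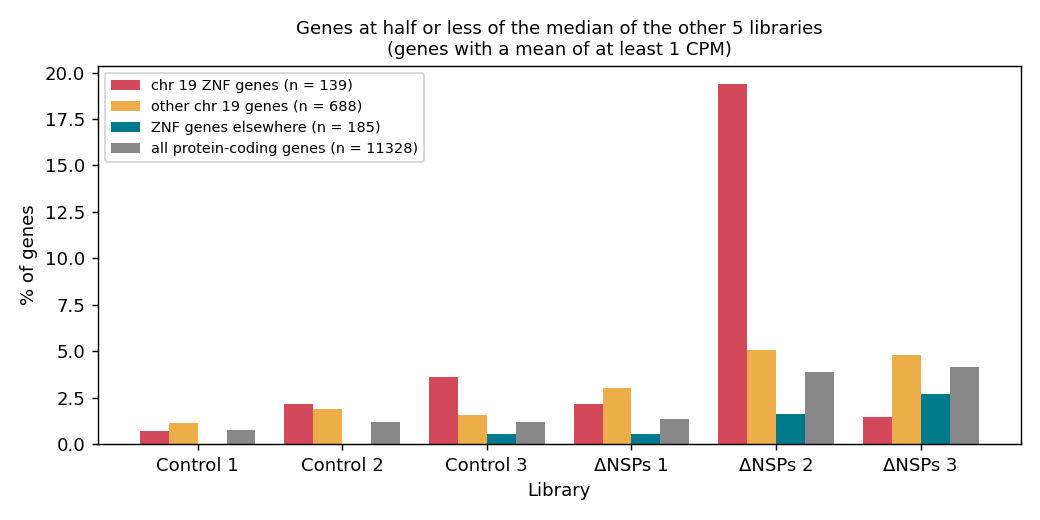
Share of genes (%) at least 2-fold below the median of the other 5 libraries, for each library, among genes that averaged 1 CPM or more. The share of chromosome 19 zinc finger genes is 19.4% in ΔNSPs 2 and at most 3.6% in the other libraries, while ZNF genes on other chromosomes stay at 2.7% or below in every library.

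The cluster from ZNF175 to ZNF761 held 12 of these 30 genes among its 21. Its median was −1.51 in clone 2 as a log2 difference from the other 5 libraries, −0.46 in clone 3 and 0.37 in clone 1, and clone 2 was the lowest library for 17 of the 21. ZNF614, between ZNF649 and ZNF432, had 34.6, 46.4 and 43.3 CPM in Control and 45.4, 5.45 and 27.9 CPM in ΔNSPs, so a well expressed gene was also low. ZNF616 had 29.1, 36.7 and 33.1 CPM in Control and 27.9, 14.8 and 16.2 CPM in ΔNSPs. Not all genes of the cluster were this low in clone 2. ZNF175, a repressor made by HIV-infected macrophages, had 15.2, 14.8 and 15.6 CPM in Control and 12.9, 12.6 and 12.1 CPM in ΔNSPs. ZNF480 had 66.2, 65.3 and 61.5 CPM in Control and 86.8, 53.1 and 61.1 CPM in ΔNSPs. Clone 2 was its lowest library, but it was not 2-fold low. ZNF160 and ZNF665, named after their values were seen, were higher in clone 2 than in 4 of the other libraries or more, at 12.03 and 3.10 CPM. Among 4 other protein-coding genes in the span that averaged 1 CPM or more, clone 2 had a median log2 difference of −0.11. Clone 2 was the lowest library for 2 of the 4, none was at least 2-fold low there and 1 was at least 2-fold high. Of the 4, PPP2R1A encodes a subunit of protein phosphatase 2A. It had 402.6, 458.2 and 458.7 CPM in Control and 481.0, 296.7 and 315.7 CPM in ΔNSPs, lowest in clones 2 and 3.

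**Figure D4:**
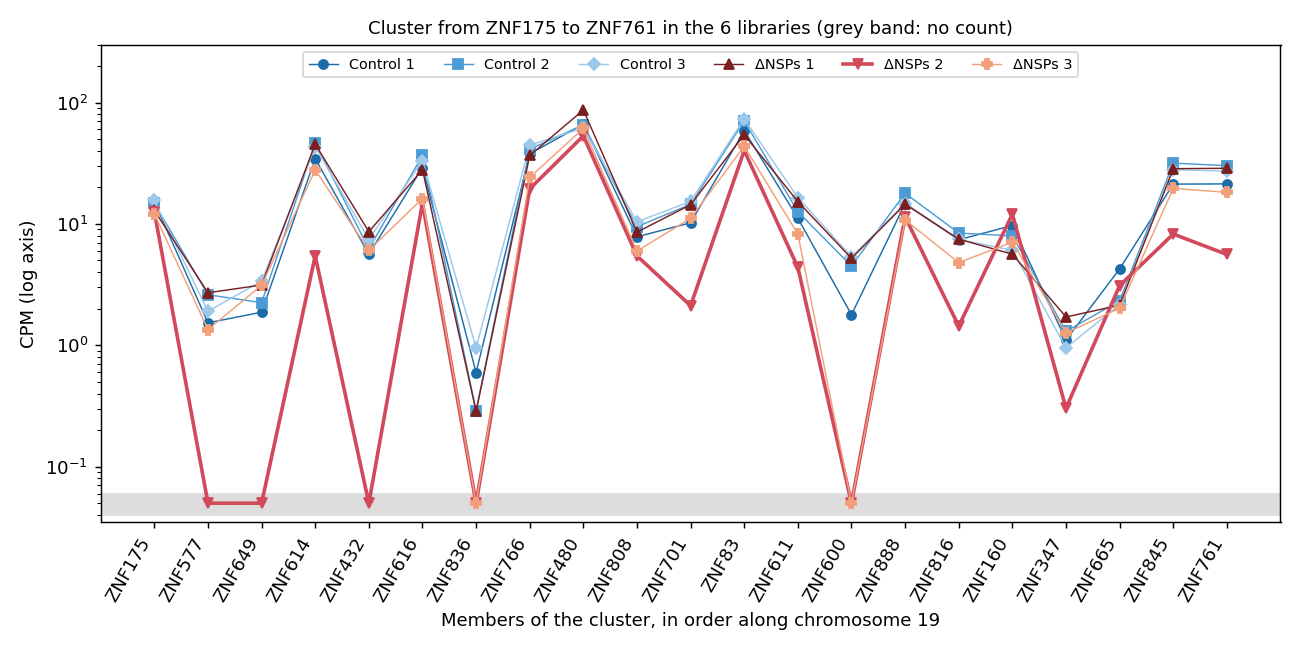
CPM (log axis) of the 21 genes of the cluster from ZNF175 to ZNF761 in the 6 libraries, in order along the chromosome, with lines joining the points of a library; points in the grey band had no count. ΔNSPs 2 is the lowest library for 17 genes, with no count for ZNF577, ZNF649, ZNF432, ZNF836 and ZNF600, while ZNF480 has 53.1 CPM there.

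The other low genes of clone 2 were scattered or in short runs. In the cluster from ZNF565 to ZNF573, 5 of 17 were at least 2-fold low: ZNF382, ZNF461, ZNF420, ZNF585A and ZNF585B. ZNF585B had 4.60, 6.01 and 6.24 CPM in Control and 7.06, 0.303 and 8.17 CPM in ΔNSPs, and ZNF420, an inhibitor of p53, had 8.43, 13.5 and 14.1 CPM in Control and 11.5, 1.89 and 7.16 CPM in ΔNSPs. ZNF585A overlaps ZNF420 on the other strand by 23581 bases, and ZNF585A and ZNF585B are near copies, so reads may be split between them. The clusters from ZNF264 to ZNF446 and from ZNF414 to ZNF846 held 5 of 37 and 3 of 11. Some genes were at least 2-fold high in clone 2 instead, 8 of the 151, as many as in clone 3. Among genes averaging 1 CPM or more there were 6 of 139 in clone 2, against 306 of all 11328 protein-coding genes. Besides the switching set and ZNF506 the 8 included ZNF274, named after its values were seen. It had 21.4, 16.9 and 15.8 CPM in Control and 20.5, 41.2 and 19.9 CPM in ΔNSPs. The product of ZNF274 is known to recruit SETDB1 to zinc finger genes of chromosome 19, and its part in these levels was not tested.

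Whether neighbours switched together was examined in the 130 pairs of consecutive genes within clusters. A switching gene was in 21 pairs, and in 1 pair, ZNF577 and ZNF649, both genes switched, with the same library off. The spans of these 2 genes overlap by 1727 bases on the same strand, so some reads could belong to either. In the other 20 pairs the neighbour of a switching gene was not off and on by the same measure. By these thresholds immediate neighbours therefore seldom switched together. Several neighbours changed level in step without reaching the floor, such as ZNF614 beside ZNF432 and ZNF585B beside ZNF585A. ZNF763, which never reached 1 CPM, had a Pearson correlation of 0.93 with its neighbour ZNF433 over the 6 libraries (log2 CPM). Within 1 cluster ZNF440, ZNF433 and ZNF44 were off in the same 3 libraries. Within another ZNF577, ZNF649 and ZNF432 were off in clone 2 alone.

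Over all clusters together, neighbours had higher correlations than pairs farther apart. The median Pearson correlation of log2 CPM over the 6 libraries was 0.44 for the 130 adjacent pairs, 0.26 for 1187 pairs of the same cluster that were not adjacent, and 0.014 for 10008 pairs of different clusters. These pairs share libraries and depth and are described without a p. Other protein-coding genes averaging 1 CPM or more were paired after the zinc finger genes of chromosome 19 were set aside. Their adjacent pairs had a median of 0.55 on chromosome 19 (672 pairs) and 0.22 on the other chromosomes (9558 pairs). With the same limit of 1 CPM the zinc finger pairs had 0.45 (118 pairs), so a positive value was not particular to the ZNF genes of chromosome 19. Without clone 2 the median of the 130 pairs was 0.28, and that of different clusters −0.016. By orientation the median was 0.45 for 27 head-to-head pairs, 0.47 for 75 on the same strand and 0.29 for 28 tail-to-tail pairs. The 7 pairs with starts within 10 kb had 0.75. Among these 7, ZNF580 and ZNF581 overlap by 8011 bases on the same strand, and ZNF324 and ZNF446 by 1420 bases. The spans of 34 of the zinc finger genes overlap another of them, and the part of shared reads in these values was not tested.

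The clusters differed among themselves. Adjacent pairs had a median r of 0.76 in the cluster from ZNF175 to ZNF761, 0.69 from ZNF565 to ZNF573, 0.64 from ZNF653 to ZNF791 and 0.44 from ZNF264 to ZNF446. In the clusters from ZNF628 to ZNF71 and from ZNF575 to ZNF180 it was 0.13 and 0.11, and from ZNF414 to ZNF846 it was −0.18. Over all pairs of a cluster, adjacent or not, the medians were 0.75, 0.42, 0.65, 0.073, 0.14, −0.015 and −0.024 in that order. Adjacent pairs were thus higher from ZNF565 to ZNF573, ZNF264 to ZNF446 and ZNF575 to ZNF180, and near or below all pairs in the others. The first 3 clusters named are those that held 9 of the 11 switching genes. In the cluster from ZNF653 to ZNF791 the median log2 difference from the other libraries was 0.24, −0.11 and −0.36 in Control and −0.45, 0.45 and 0.71 in ΔNSPs. These medians include the switching genes ZNF440, ZNF433 and ZNF44, and single genes differed: ZNF136 was lowest in Control 1, and ZNF490 was lowest in clone 3. The 2 other protein-coding genes of the span, ECSIT and ELOF1, had medians of 0.27, −0.33 and −0.28 in Control and −0.18, 0.38 and 0.30 in ΔNSPs, the same signs in each library. These signs were also seen in ZNF557, in ZNF333 and the overlapping ADGRE2 (14.7 Mb), and in the medians from ZNF101 to ZNF93. From ZNF430 to ZNF100, at 21.0 to 21.8 Mb, the medians were 0.26, −0.27 and −0.31 in Control and −0.26, 0.35 and 0.50 in ΔNSPs. ADGRE2 stood near 0 in Control 1 and clone 1. The clusters from ZNF414 to ZNF846 and from ZNF724 to ZNF254 had other signs.

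**Figure D5:**
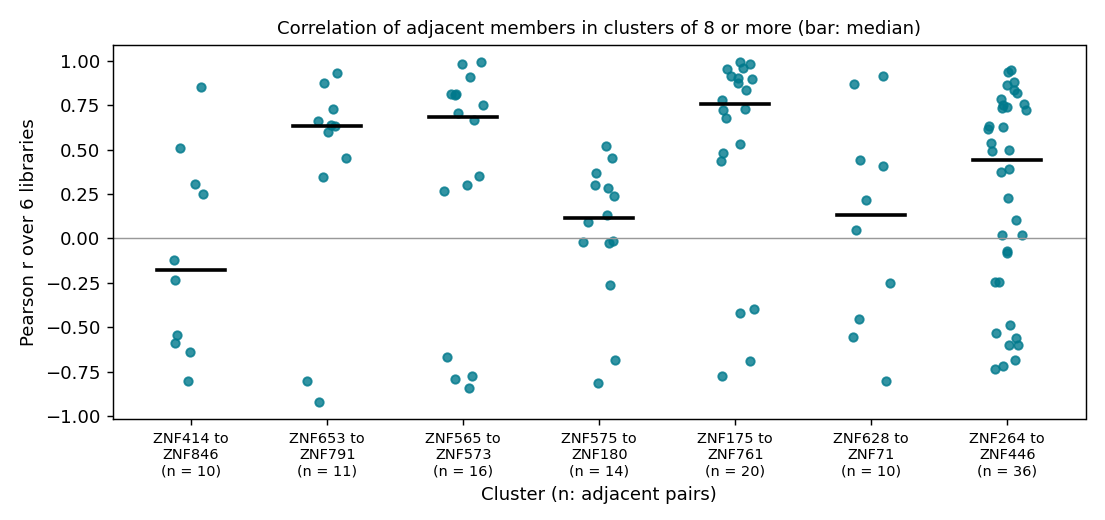
Pearson correlation of log2 CPM over the 6 libraries for adjacent zinc finger genes, 1 point per pair, in the 7 clusters of at least 8 genes; bars are medians. Medians run from −0.18 in the cluster from ZNF414 to ZNF846 to 0.76 in that from ZNF175 to ZNF761.

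Named pairs show what such values rest on. ZNF845 and ZNF761 had the highest r among adjacent pairs with means of at least 2 CPM, 0.996 (rho 1.00), and it was 0.988 without the 2 libraries farthest from the median of ZNF845. ZNF845 had 21.3, 31.7 and 28.0 CPM in Control and 28.5, 8.25 and 19.6 CPM in ΔNSPs, and ZNF761 had 21.4, 30.2 and 27.2 CPM in Control and 28.7, 5.60 and 18.2 CPM in ΔNSPs. For ZNF614 and ZNF432 r was 0.98 (rho 0.771) and 0.646 without the 2 farthest libraries, one of them clone 2. For ZNF577 and ZNF649 r was 0.959 (rho 0.60) and 0.080 without clone 2, so that value rests on the library with no count of either gene. For ZNF506 and ZNF253 it was 0.886 (rho 0.714) and 0.838 without clone 2.
Under the same limit of 2 CPM, the lowest values were those of ZNF780B and ZNF780A, −0.968 (rho −0.771), and of ZNF383 and ZNF527, −0.841 (rho −0.886). ZNF780B had 13.7, 14.5 and 12.5 CPM in Control and 22.3, 13.7 and 17.4 CPM in ΔNSPs, and ZNF780A had 15.4, 13.9 and 14.7 CPM in Control and 10.2, 15.1 and 12.5 CPM in ΔNSPs. They are near copies, so the split of reads between them is uncertain, and r was −0.38 without clones 1 and 3, the farthest libraries.

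Genes that start back to back did not all move together. The GENCODE starts of ZNF382 and ZNF529 are 0.459 kb apart, with spans that overlap by 460 bases. The windows shown above use the RefSeq starts instead. For this pair r was 0.303 (rho −0.086). ZNF529 had 29.6, 32.6 and 24.9 CPM in Control and 27.6, 24.1 and 27.3 CPM in ΔNSPs, so it kept its level in clone 2, where ZNF382 had 2 counts. ZNF585B and ZNF383 start 0.227 kb apart in GENCODE, with r of 0.814 (rho 0.086), which became −0.631 without clone 2. ZNF383 had 25.4, 26.4 and 27.6 CPM in Control and 24.5, 16.0 and 20.8 CPM in ΔNSPs. ZNF585B in clone 2 stood at 4.85% of the median of the other libraries, while ZNF383 was lowest there without falling near the floor.

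Across the groups, which ask what depletion of the 3 proteases did to expression, the zinc finger genes showed no change that passed the main test. With edgeR's quasi-likelihood test 0 of 141 tested genes had an adjusted p under 0.05, beside 0.0203% of all 14797 genes tested, which is 3 genes. The other 10 were too low to be tested, ZNF433, ZNF44 and ZNF154 among them. At an unadjusted p under 0.05 there were 11, or 7.8% against 17.8% of all genes; 6 were higher in ΔNSPs (9.23% of all genes) and 5 lower (8.6%). DESeq2 called 1 of 135, ZNF83, lower in ΔNSPs (adjusted p = 0.0418), against 3.64% of all genes and 1.92% called lower, and limma voom called 0 against 0.0135%, with 38 at an unadjusted p under 0.05 (24.5% of all genes). The groups did not overlap in 30 of the 141, 14 higher and 16 lower (21.3%), against 23.9% of all tested genes, or 12.2% higher and 11.7% lower. The voom share at an unadjusted p, 27.0%, was above its background, and the edgeR, DESeq2 and overlap shares were below theirs. The median log2 fold change was −0.12 for the 141, with 56 above 0 and 85 below, against 0.0023 over all genes, −0.058 over ZNF genes on other chromosomes and 0.12 over the other protein-coding genes of chromosome 19. Without clone 2 it was −0.018.

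The largest log2 fold changes among genes averaging 1 CPM or more whose groups did not overlap give the scale of the differences. ZNF101 had 26.4, 23.8 and 19.7 CPM in Control and 29.6, 30.7 and 42.6 CPM in ΔNSPs, 0.55 higher on the log2 scale (SE 0.18) with an adjusted p of 0.20 in edgeR. ZNF616, given above, differed by −0.74 on the log2 scale (SE 0.24, and an adjusted p of 0.20 with edgeR), with clone 1 next to the Control range. ZNF443, at 2.58 ± 0.291 CPM in Control and 4.07 ± 1.04 CPM in ΔNSPs (SD, n = 3), and ZNF547, at 0.665 ± 0.277 and 1.40 ± 0.451 CPM, were the other 2 named for their higher levels. ZNF490 had 1.85 ± 0.424 and 1.07 ± 0.122 CPM, and ZNF221 had 2.84 ± 0.727 and 1.67 ± 0.564 CPM. None of the 6 passed, the edgeR adjusted p values being 0.20 to 0.305. ZNF83 had 58.6, 70.6 and 73.4 CPM in Control and 54.3, 40.3 and 43.7 CPM in ΔNSPs, with an edgeR adjusted p of 0.176.

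Clone 1 bore on these counts. Without it, 6 of 142 tested genes passed edgeR, beside 6.17% of all genes: ZNF333 was higher (3.04% of all genes), and ZNF566, ZNF616, ZNF766, ZNF83 and ZNF600 were lower (3.13%). Their adjusted p ran from 0.0168 to 0.0323, and 4 of the 5 lower genes lie in the cluster from ZNF175 to ZNF761. Leaving out any other library gave 0 genes, with backgrounds of 0.131%, 0.0% and 0.0% without Control 1, 2 and 3 and 0.0133% and 0.00655% without clones 2 and 3. The genes that switched had wide spreads: ZNF440 had a log2 fold change of 2.09 and an edgeR adjusted p of 0.452, since Control 1 was on and clone 1 off.

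The machinery through which these proteins act was measured as well. Of 25 listed cofactors and heterochromatin genes 24 had a row, and 0 of 24 passed edgeR, while 2 had an unadjusted p under 0.05, 1 each way, against 17.8% of all genes, and DESeq2 called 1, against 3.64%. TRIM28, the corepressor of KRAB zinc finger proteins, had 842.3, 828.5 and 800.8 CPM in Control and 1035, 815.7 and 790.4 CPM in ΔNSPs. SETDB1 had 64.3, 63.1 and 60.7 CPM in Control and 59.4, 62.0 and 69.5 CPM in ΔNSPs. Both lay within the Control range in clone 2. RBBP4, RBBP7 and CBX3 were, with TRIM28, the most abundant of the list by mean CPM. RBBP7, a histone-binding subunit, had 351.4, 472.0 and 427.7 CPM in Control and 458.7, 232.6 and 224.8 CPM in ΔNSPs, lowest in clones 2 and 3. CBX5, which encodes HP1 alpha and was named after its values were seen, had 225.0 ± 13.4 CPM in Control and 149.3 ± 23.8 CPM in ΔNSPs (SD, n = 3), with an edgeR adjusted p of 0.171. Of 14 DNA methylation genes 0 passed edgeR, while 4 had an unadjusted p under 0.05, 2 each way, against 17.8% of all genes. DNMT1, the maintenance methyltransferase, also named after its values were seen, itself lies on this chromosome, at chr19:10133345-10231286. It had 283.2, 197.4 and 193.0 CPM in Control and 219.1, 332.9 and 351.0 CPM in ΔNSPs. Control 1, clone 2 and clone 3 were the highest libraries for DNMT1, as for ZNF440, ZNF506 and ZNF253, and its part in their levels was not tested. In bulk RNA, fewer cells with a transcript and less of it per cell cannot be told apart.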

How the data were processed

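Raw gene counts, not normalized, were deposited by the authors as a single table over the 6 libraries. The submitters' processing notes name HTSeq 0.11.1, HISAT2 2.0.0, SAMtools 1.5.9, FastQC and the build GRCh38.p12, and how strands were treated, which annotation was counted and whether genes were filtered is not given in the sources used here. GENCODE release 29 supplied names, coordinates and biotypes (18771 of 18798 genes matched), and RefSeq the promoters.

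Groups came from the sample labels. Counts were scaled with TMM and tested on the whole table with edgeR 4.0.16 (R 4.3.3; quasi-likelihood, filterByExpr, two-sided, Benjamini-Hochberg over all genes tested, threshold 0.05); the scripts were tested on simulated data. DESeq2 1.42.0, limma 3.58.1 voom with quality weights, other size factors, filters, thresholds, a replicate block and leaving out each library were alternatives. Floors of 3 counts cover counting error only. The labels give no sequencing batch.

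The members, the lists and the naming rule were chosen with earlier results of these data known. Genes named by the rule were those that switched, the neighbours of 8 of them, the 5 highest per kb, the 3 each way with the largest log2 fold change among non-overlapping genes averaging 1 CPM or more, the 2 adjacent pairs with the highest and the 2 with the lowest correlation among genes averaging 2 CPM or more, and abundant cofactors with TRIM28 and SETDB1. Genes outside it were named after their values were seen: ZNF83, ZNF160, ZNF274, ZNF461, ZNF529, ZNF665, ZNF671 and those called without clone 1.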

Additional observations from a re-analysis of the deposited data

How the results depend on the processing

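The replicate numbers did not pair the samples: deviations of same-numbered libraries correlated at −0.432, −0.161 and −0.14, and with the replicate block 0 zinc finger genes were called. The count called was 1 with DESeq2, and 0 to 6 when single libraries were left out, the 6 without clone 1. The median log2 fold change was −0.17 with voom and −0.18 to −0.018 without single libraries, nearest 0 without clone 2. The number of switching genes was 19 when off meant 10 counts or fewer, and 6 to 11 without single libraries, 6 without clone 2, since 5 genes were off there alone. Pairs in which both genes switched were 3 with off at 10 counts or fewer, 2 with on at 0.5 CPM, and 0 to 1 without single libraries. The median correlation of adjacent genes was 0.28 to 0.49 without single libraries.

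Of 500 alternative fold changes of 36 named genes, 13 changed sign. With voom ZNF627 stood at 0.031 and ZNF480 at −0.026. Without single libraries the log2 fold changes ran from −0.27 to 0.090 for ZNF627, −0.18 to 0.20 for ZNF480, −1.0 to 0.30 for ZNF585A, −0.60 to 0.44 for ZNF585B, −0.22 to 0.010 for ZNF428, −1.62 to 0.014 for ZNF577, −0.71 to 0.33 for ZNF649 and −1.11 to 0.20 for ZNF432. The highest values of ZNF585A, ZNF585B, ZNF577, ZNF649 and ZNF432 come without clone 2, which had 4 counts or fewer of them; the cause of the others was not tested. With 3 counts at 0.2139 to 0.2599 CPM, depth limits what can be said of levels below about 1 CPM.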
